A study of Mus musculus with 80 samples.

Results

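The cell cycle genes described here are 40 genes listed by symbol as known genes of proliferation, with no measured value in the rule. All 40 were found among the 32764 gene symbols that were counted, and all 40 passed the low-count filter in each of the 4 tissues. RNA sequencing was done on inguinal white adipose tissue (iWAT), brown adipose tissue (BAT), liver and muscle of male wildtype (WT), FGF21 KO, UCP1 KO and double-knockout (dKO) mice, with 5 libraries per genotype and tissue and 80 in all. The labels write the double knockout as UCP1/FGF12 double KO, and the study describes it as a cross of its UCP1 KO and FGF21 KO lines. UCP1 is the uncoupling protein of brown fat that turns respiration into heat, and FGF21 is a hormone of the fibroblast growth factor family. All 4 groups were raised at 30 °C, were moved to room temperature at 10 to 12 weeks of age and then ate a high-fat diet for 3 weeks, so no group was kept warm or on chow.

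A dividing cell passes through the G1, S, G2 and M phases in turn. D-type and E-type cyclins carry cells through G1 with their kinases, against CDK inhibitors. E2F factors then turn on genes of DNA replication, among them the MCM helicase, PCNA and the enzymes that make deoxynucleotides. A later wave, driven by FOXM1 and by complexes bound at CHR and CCAAT elements, turns on the genes of mitosis: cyclin A and B, the kinases CDK1, PLK1 and Aurora A and B, the spindle checkpoint, the chromosomal passenger proteins and the spindle motors. Most cells of adult fat, liver and muscle rest outside the cycle, and dividing cells in fat include adipocyte progenitors, endothelial cells and immune cells. The 40 genes were sorted by these roles into 5 G1 cyclins, 3 CDK inhibitors, 2 transcription factors, 7 replication genes, 3 genes of nucleotide synthesis and 20 genes of mitosis, which are called mitotic members below.

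Promoters of most mitotic members held the elements that this later wave is known for. RefSeq windows of 300 bases, from 250 bases before to 50 after the transcription start on GRCm38.p6, were matched for 31 of the 40 members. On either strand, the CHR letters TTTGAA or TTCGAA were present in 13 of the 16 mitotic members with a window (81.2%) and in 21.7% of all 27025 genes with a window. The letters CCAAT were present in 15 of those 16 (93.8%) and in 41.1% of all genes. CCAAT was nearly as common in the replication and nucleotide members, at 8 of the 9 with a window (88.9%), where CHR letters were in 2 (22.2%). Of the 9 replication and nucleotide members with a window, 5 (55.6%) held one of the E2F letters TTTGGCGC, TTTCGCGC or TTCCCGCC, against 3.39% of all genes. These are matches of letters and say nothing of binding in these tissues. Windows of 4 mitotic members that rose in BAT below, and that of the helicase gene Mcm6, which did not, are shown 5′ to 3′ on the minus strand, with capitals at CHR and CCAAT matches in the first 4 and at E2F matches in Mcm6. They lie at chr7:135716330-135716629, chr11:99024140-99024439, chr10:69352863-69353162, chr4:118437294-118437593 and chr1:128359656-128359955.
Mki67: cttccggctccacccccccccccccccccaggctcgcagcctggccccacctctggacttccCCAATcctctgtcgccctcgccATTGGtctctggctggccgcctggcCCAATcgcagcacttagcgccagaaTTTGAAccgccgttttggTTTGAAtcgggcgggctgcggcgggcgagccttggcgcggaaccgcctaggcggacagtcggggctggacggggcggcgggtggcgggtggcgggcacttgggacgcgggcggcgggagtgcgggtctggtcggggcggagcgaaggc
Top2a: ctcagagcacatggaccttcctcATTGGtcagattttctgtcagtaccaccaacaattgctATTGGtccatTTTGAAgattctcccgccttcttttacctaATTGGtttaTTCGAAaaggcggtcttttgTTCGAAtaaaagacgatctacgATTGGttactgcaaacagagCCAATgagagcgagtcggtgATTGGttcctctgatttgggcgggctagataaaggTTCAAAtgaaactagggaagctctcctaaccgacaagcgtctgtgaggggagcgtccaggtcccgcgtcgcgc
Cdk1: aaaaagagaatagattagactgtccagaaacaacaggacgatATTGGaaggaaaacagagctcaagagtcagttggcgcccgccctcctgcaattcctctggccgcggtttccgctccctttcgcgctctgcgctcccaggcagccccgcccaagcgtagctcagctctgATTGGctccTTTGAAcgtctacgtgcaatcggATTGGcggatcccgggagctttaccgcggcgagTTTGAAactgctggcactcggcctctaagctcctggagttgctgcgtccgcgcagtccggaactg
Cdc20: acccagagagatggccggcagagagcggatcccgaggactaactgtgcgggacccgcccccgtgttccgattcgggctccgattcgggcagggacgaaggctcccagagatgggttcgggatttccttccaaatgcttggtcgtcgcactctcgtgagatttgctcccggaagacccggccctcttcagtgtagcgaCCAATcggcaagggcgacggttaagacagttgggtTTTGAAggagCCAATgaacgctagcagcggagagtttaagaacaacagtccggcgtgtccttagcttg
Mcm6: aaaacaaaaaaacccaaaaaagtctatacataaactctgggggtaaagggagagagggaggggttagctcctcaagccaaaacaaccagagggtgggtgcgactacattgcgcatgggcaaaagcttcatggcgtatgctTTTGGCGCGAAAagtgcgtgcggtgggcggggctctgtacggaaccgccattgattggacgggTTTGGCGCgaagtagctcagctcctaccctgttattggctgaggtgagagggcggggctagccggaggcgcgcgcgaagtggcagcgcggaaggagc

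CHR and CCAAT matches stood together in 13 of the 16 mitotic members with a window and in 8.61% of all genes. Top2a held the most of the 4, with 4 CHR and 6 CCAAT matches, and Mcm6 held 3 E2F matches. Among the members that rose in BAT without UCP1 (below), 8 of the 14 with a window held both CHR and CCAAT letters, and among the other members 7 of 17 did.

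Each library held between 28691377 and 50380696 counts on genes. Levels are given in CPM, counts scaled to a common library size. Fgf21 had at most 3 counts in each FGF21 KO and dKO library. Ucp1 was still counted in the knockouts: in BAT it lay between 696 and 1940 CPM of the library total in UCP1 KO and dKO and between 2980 and 7290 CPM in the other 2 genotypes, while in iWAT the UCP1 KO libraries, at 110 to 599 CPM, were above WT at 2.94 to 17.4 CPM. Counts over the whole gene cannot tell whether the deleted part was read, so Ucp1 checks the label only by its lower level in BAT. Nothing in the labels links the tissues of a mouse or says how the 5 libraries of a group were drawn, and p-values measure the spread between these libraries.

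In WT mice the members were highest in iWAT. Per kilobase of exon, the median member stood at 1.12 CPM in iWAT, 0.44 in liver, 0.388 in BAT and 0.368 in muscle, and 28 of the 40 members had their highest mean in iWAT. BAT was significantly below iWAT for 31 members and above it for Cdkn1a, Rrm1 and Cenpa (edgeR quasi-likelihood test, adjusted p under 0.01, as at each call below), that is 34 of 40, where 57.3% of all 17611 genes were called. The median member was 1.80 lower in BAT on the log2 scale. Among the WT libraries, 2 of the 5 WT iWAT libraries had a high lymph node signal (below). Without these, 30 members were called against BAT, 28 of them lower in BAT, where 55.2% of all genes were called. The median difference was then -1.32, beside -0.051 for all genes, and 27 of the 40 members still had their highest mean in iWAT.

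Ki-67 (Mki67), the nuclear antigen of cycling cells, stood at 1.21 ± 0.713 CPM per kb (SD, n = 5) in iWAT, 0.262 ± 0.0642 in liver, 0.208 ± 0.0413 in muscle and 0.142 ± 0.0122 in BAT. Topoisomerase IIα (Top2a), which untangles replicated chromosomes, was highest in iWAT too, with 1.2 ± 0.797 CPM per kb there and means between 0.131 and 0.194 in the other 3 tissues. Over the 3 WT iWAT libraries with a low lymph node signal the means were lower, 0.753 ± 0.0677 CPM per kb for Mki67 and 0.688 ± 0.134 for Top2a (n = 3), still above the highest library of every other tissue. BAT and muscle were each lowest for 15 members and liver for 10. BAT differed from liver in 15 members, 7 higher and 8 lower, against 64.4% of all genes, and from muscle in 16, 9 higher and 7 lower, against 60.8% of all genes. The median differences were -0.12 and -0.05.

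Some members went against this order. Aurora A kinase (Aurka) reached 6.14 ± 1.25 CPM per kb in muscle and 0.33 ± 0.0672 in BAT. Its activator at the spindle, Tpx2, stood at 3.77 ± 0.608 in muscle and 0.133 ± 0.0254 in BAT. The differences of BAT against muscle were -4.21 and -4.81 on the log2 scale, and Aurkb, Mki67 and Cdk1 did not pass the test there. Among the CDK inhibitors, Cdkn2c and Cdkn1a had their highest means in a fat depot and Cdkn1b in muscle. p18 (Cdkn2c), an inhibitor of CDK4 and CDK6, stood at 27.2 ± 4.61 CPM per kb in BAT, 26 ± 6.07 in iWAT, 3.35 ± 0.709 in muscle and 1.33 ± 0.256 in liver, and the fat depots did not differ beyond their spread (adjusted p = 0.833). p21 (Cdkn1a), the inhibitor induced by p53, was highest in BAT at 28.1 ± 9.56. p27 (Cdkn1b), an inhibitor of CDK2, stood at 10.7 ± 0.511 in muscle and 8.35 ± 0.422 in BAT, which was not called (adjusted p = 0.0482). Pcna, the sliding clamp of DNA polymerase, stood between 8.56 ± 0.206 in muscle and 13.7 ± 1.82 in iWAT.

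**Figure D1:**
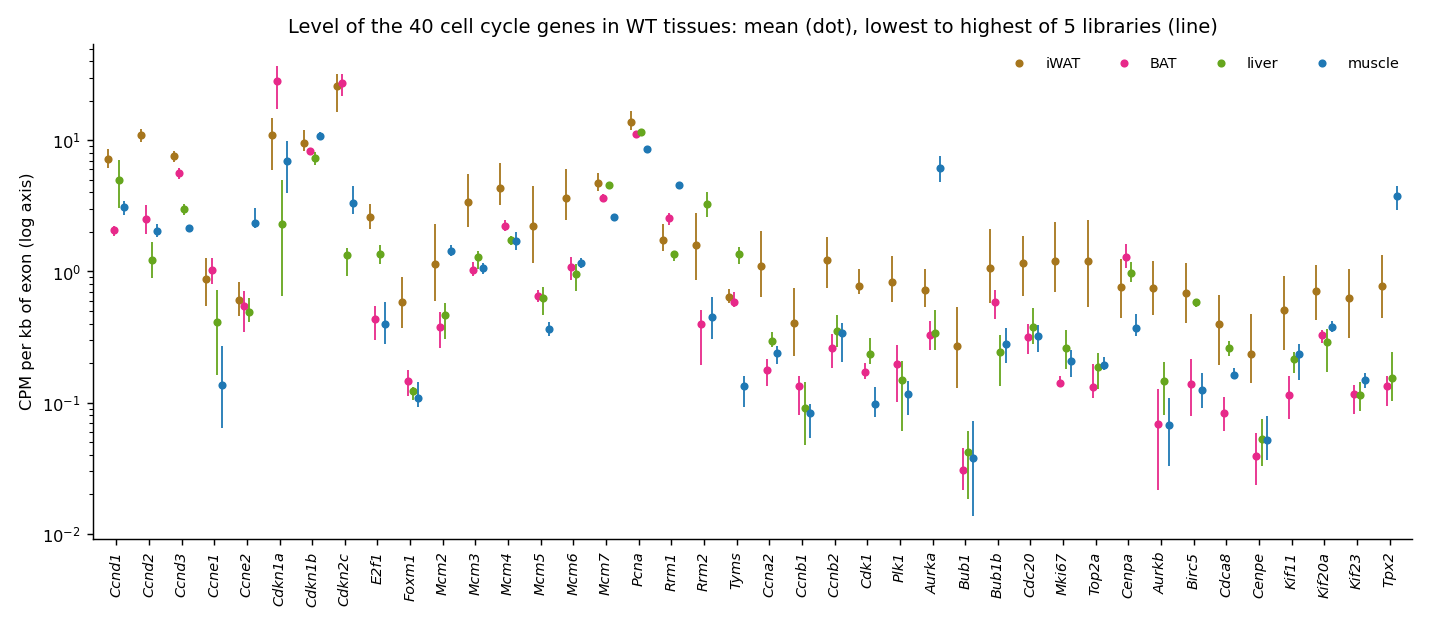
Level of each of the 40 cell cycle genes in WT mice, in CPM per kb of exon on a log axis. Dots are means and lines run from the lowest to the highest of 5 libraries per tissue. iWAT lies highest for 28 genes, and Aurka and Tpx2 stand far up in muscle.

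In BAT most mitotic members rose in both genotypes that lack UCP1. In UCP1 KO against WT 20 of the 40 members rose and 1, Cdkn2c, fell, 52.5% of members in all, where 25.2% of all 15729 genes tested were called, 13.8% higher and 11.4% lower. The median log2 fold change of the members was 0.90 beside 0.01 for all genes. In dKO against FGF21 KO, a comparison that shares no library with the first, 19 members rose and Cdkn2c fell, 20 of the 40 where 13.5% of all genes were called, 6.74% higher and 6.8% lower. The median was 0.80 beside 0.004. The same 19 members were called in the same direction in both comparisons, which is 90.5% of the first set and 19 of the 20 of the second. The groups did not overlap for 22 members that were higher and 1 that was lower in UCP1 KO (11.8% and 11.7% of all genes), and for 13 and 1 in dKO (8.84% and 9.8%). Most macrophage markers were also called higher in UCP1 KO against WT (below). With the mean of that list as a covariate 6 members, 4 of them mitotic, were called in UCP1 KO against WT and 17 members in dKO against FGF21 KO. With the lymph node signal (below) as a covariate, 21 and 8 members were called, all 8 of them higher, and the call of Cdkn2c in dKO was lost. Bulk RNA cannot tell apart more or fewer dividing cells and more or less RNA per cell.

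The roles were not called alike. Of the 20 mitotic members, 14 rose in each comparison and all 20 had a positive log2 fold change in both, as 50.9% and 50.4% of all genes had, with a median of 1.27 in each. All 5 motors and spindle genes, both transcription factors and 2 of the 5 G1 cyclins rose in each. None of the 7 replication genes was called in either, and their log2 fold changes ran from -0.26 to 0.67 and from -0.18 to 0.63. Loss of FGF21 alone (FGF21 KO against WT) gave 0 called members by edgeR, 0 at an unadjusted p under 0.05 and a median of 0.00, where 0% of all genes were called and 8.55% passed unadjusted. UCP1 KO against dKO gave 0 called members, 1 higher (Ccnd2) and 1 lower (Rrm1) at an unadjusted p under 0.05 and a median of -0.02, where 0.0636% of all genes were called and 12.9% passed unadjusted. The interaction, which tests whether the effect of UCP1 loss differed with FGF21 present or absent, gave 0 called members and 0 at an unadjusted p under 0.05, where 0% and 5.37% of all genes were. DESeq2 likewise called 0 members in each of these.

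Mki67 rose in both comparisons. Values of a group are listed from replicate 1 to 5 here and below, numbered in the order of deposition since the labels give no numbers, and log2 fold changes are given ± SE. Mki67 read 1.52, 1.37, 1.47, 1.37 and 1.68 CPM in the 5 WT libraries and 6.49, 6.8, 4.85, 4.88 and 6.02 CPM in the 5 UCP1 KO libraries. FGF21 KO had 2.39, 1.9, 2.07, 1.52 and 1.5 CPM and dKO 8.56, 7.72, 2.45, 5.09 and 5.54 CPM of Mki67. All 5 UCP1 KO libraries were above all WT libraries, and the lowest dKO library, replicate 3, lay only just above the highest FGF21 KO library. The log2 fold change was 1.97 ± 0.25 in UCP1 KO against WT and 1.64 ± 0.24 in dKO against FGF21 KO, or 3.91-fold and 3.12-fold, with adjusted p = 1.04e-05 and 0.000101. An exact two-sided permutation test gave p = 0.00794 in each, the smallest that 5 against 5 libraries can give. The 5 WT libraries held 1.86, 1.09, 1.01, 1.01 and 1.16 CPM of Top2a and the UCP1 KO libraries 4.99, 4.2, 3.18, 4.4 and 5.13 CPM. For Top2a, FGF21 KO gave 1.74, 1.48, 1.26, 1.45 and 1.44 CPM and dKO 7.5, 6.57, 1.77, 4.14 and 5.06 CPM. Top2a did not overlap either, with log2 fold changes of 1.83 ± 0.28 in UCP1 KO against WT and 1.76 ± 0.28 in dKO against FGF21 KO (adjusted p = 8.49e-05 and 0.000206).

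Members of the chromosomal passenger complex, which corrects faulty spindle attachments, were called in at least 1 comparison each. Aurora B (Aurkb) had the largest log2 fold change of the 40 members in UCP1 KO. Aurkb stood at 0.0913, 0.246, 0.385, 0.0651 and 0.261 CPM in WT and at 1.31, 1.27, 0.631, 0.837 and 1.51 CPM in UCP1 KO. Its FGF21 KO values were 0.395, 0.237, 0.42, 0.208 and 0.188 CPM and its dKO values 1.29, 1.15, 0.401, 0.849 and 0.94 CPM. UCP1 KO stood wholly above WT, while dKO replicate 3 lay inside the FGF21 KO range. The log2 fold change was 2.4 ± 0.41 in UCP1 KO against WT and 1.65 ± 0.39 in dKO against FGF21 KO (adjusted p = 0.000194 and 0.00472). Survivin (Birc5) and borealin (Cdca8) hold the complex at the centromere. In WT, Birc5 was measured at 0.426, 0.281, 0.42, 0.748 and 0.579 CPM, and in UCP1 KO at 1.66, 0.925, 0.937, 0.895 and 1.53 CPM. Birc5 in FGF21 KO came to 0.483, 0.385, 0.0645, 0.208 and 0.532 CPM and in dKO to 1.71, 1.91, 0.754, 1.24 and 0.899 CPM. Neither pair of groups overlapped for Birc5, but only dKO against FGF21 KO was called (1.92 ± 0.39, adjusted p = 0.00171), with 1.26 ± 0.38 and adjusted p = 0.0135 in UCP1 KO against WT. Cdca8 had 0.548, 0.597, 0.385, 0.325 and 0.376 CPM in WT and 0.59, 1.3, 1.02, 1.25 and 1.31 CPM in UCP1 KO. Libraries of FGF21 KO had 0.593, 0.385, 0.516, 0.242 and 0.344 CPM and those of dKO 1.36, 1.41, 1.2, 0.901 and 0.878 CPM. For Cdca8, UCP1 KO replicate 1 lay just inside the WT range, and the log2 fold changes were 1.29 ± 0.27 in UCP1 KO against WT and 1.44 ± 0.27 in dKO against FGF21 KO, both called. Cenpa, the histone that marks the centromere, was not called in either comparison (0.15 ± 0.20 and 0.24 ± 0.20).

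Of the cyclins and kinases of mitosis, cyclin A2 (Ccna2) and CDK1 rose in both comparisons. CDK1 is the kinase that starts mitosis. Values of Cdk1 were 0.882, 0.773, 1.01, 0.813 and 0.869 CPM in WT and 3.49, 1.25, 2.02, 2.1 and 2.7 CPM in UCP1 KO. They were 1.21, 0.651, 1.19, 0.934 and 0.563 CPM in FGF21 KO and 3.14, 2.15, 1.23, 2.6 and 1.76 CPM in dKO. No library overlapped in either comparison, although dKO replicate 3 and FGF21 KO replicate 1 differed little. The log2 fold change was 1.41 ± 0.28 in UCP1 KO against WT and 1.25 ± 0.28 in dKO against FGF21 KO (adjusted p = 0.000822 and 0.00349). For Ccna2, WT gave 0.578, 0.562, 0.874, 0.911 and 0.782 CPM and UCP1 KO 2.71, 2, 1.26, 1.6 and 2.68 CPM. The FGF21 KO libraries gave 1.16, 1.3, 0.871, 0.554 and 0.657 CPM and the dKO libraries 3.11, 2.72, 1.3, 2.55 and 1.94 CPM. For Ccna2 the UCP1 KO libraries were all above WT, dKO replicate 3 met the highest FGF21 KO library, and the log2 fold changes were 1.46 ± 0.29 in UCP1 KO against WT and 1.34 ± 0.28 in dKO against FGF21 KO. Cyclin B1 (Ccnb1), the partner of CDK1, was called only in UCP1 KO. Ccnb1 read 0.669, 0.597, 0.35, 0.585 and 0.695 CPM in the 5 WT libraries and 2.52, 1.25, 1.14, 1.05 and 2.36 CPM in the 5 UCP1 KO libraries. FGF21 KO had 0.901, 0.77, 0.581, 0.761 and 0.344 CPM and dKO 2.05, 1.36, 0.354, 1.08 and 0.961 CPM of Ccnb1. UCP1 KO did not overlap WT (1.51 ± 0.38, adjusted p = 0.00425), and dKO overlapped FGF21 KO (0.78 ± 0.38, adjusted p = 0.127). The difference between these 2 effects was not called. Ccnb2, Plk1 and Aurka had log2 fold changes from 0.65 to 1.25 in both comparisons, with adjusted p from 0.0136 to 0.0496.

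Among the checkpoint genes, Bub1 and Cdc20 rose in both comparisons and Bub1b in neither. The checkpoint kinase Bub1 was one of the lowest members. The 5 WT libraries held 0.152, 0.14, 0.105, 0.0976 and 0.203 CPM of Bub1 and the UCP1 KO libraries 0.724, 0.55, 0.489, 0.409 and 0.523 CPM. For Bub1, FGF21 KO gave 0.22, 0.385, 0.194, 0.242 and 0.125 CPM and dKO 0.969, 0.811, 0.189, 0.489 and 0.543 CPM. All UCP1 KO libraries were above WT, and dKO replicate 3 lay in the lower part of the FGF21 KO range. The log2 fold changes were 1.91 ± 0.39 in UCP1 KO against WT and 1.35 ± 0.36 in dKO against FGF21 KO, the second with adjusted p = 0.0096, and the call held in 3 of 20 refits leaving out a single BAT library. Cdc20 turns on the anaphase-promoting complex that ends mitosis. Cdc20 stood at 0.669, 0.773, 0.594, 0.455 and 0.55 CPM in WT and at 1.05, 0.975, 1.14, 0.915 and 1.51 CPM in UCP1 KO. Its FGF21 KO values were 0.615, 0.533, 0.355, 0.554 and 0.563 CPM and its dKO values 1.59, 1.46, 0.896, 0.952 and 1.15 CPM. Cdc20 did not overlap in either comparison, with 0.87 ± 0.21 in UCP1 KO against WT and 1.20 ± 0.21 in dKO against FGF21 KO. Bub1b, with 0.40 ± 0.21 and 0.14 ± 0.21, had adjusted p = 0.137 and 0.642.

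All 5 motors and spindle genes were called in both comparisons. TPX2 activates Aurora A. In WT, Tpx2 was measured at 0.73, 0.632, 0.629, 0.455 and 0.782 CPM, and in UCP1 KO at 2.17, 2.42, 1.57, 2.43 and 2.68 CPM. Tpx2 in FGF21 KO came to 0.681, 0.563, 1.03, 0.796 and 0.501 CPM and in dKO to 3, 2.2, 1.56, 2.32 and 1.8 CPM. Neither comparison overlapped, and the log2 fold change was 1.80 ± 0.23 in UCP1 KO against WT and 1.60 ± 0.22 in dKO against FGF21 KO (adjusted p = 1.07e-05 and 5.89e-05). Tpx2 was far higher in WT muscle than in WT BAT (above). Some BAT libraries without UCP1 had high skeletal muscle markers (below), such as dKO replicate 3 with a mean log2 CPM of 8.74. Kif11 had 0.761, 1.23, 1.01, 0.813 and 0.579 CPM in WT and 2.23, 1.87, 1.26, 1.95 and 1.98 CPM in UCP1 KO. Libraries of FGF21 KO had 0.945, 0.859, 1, 0.934 and 0.876 CPM and those of dKO 2.74, 2.9, 1.39, 2.24 and 1.94 CPM. Kif11, the motor that pushes the spindle poles apart, had 1.08 ± 0.22 in UCP1 KO against WT and 1.28 ± 0.21 in dKO against FGF21 KO, with no overlap. Values of Kif23 were 0.882, 0.667, 1.08, 1.11 and 0.985 CPM in WT and 2.15, 1.62, 1.49, 1.98 and 1.94 CPM in UCP1 KO. They were 1.08, 0.8, 1.19, 0.657 and 0.532 CPM in FGF21 KO and 2.42, 2.2, 1.56, 2.55 and 1.48 CPM in dKO. Kif23, a motor of cytokinesis, had 0.96 ± 0.22 in UCP1 KO against WT and 1.25 ± 0.22 in dKO against FGF21 KO, again with no overlap.

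The other motors overlapped in part. For Kif20a, WT gave 1.28, 1.37, 1.57, 1.59 and 1.56 CPM and UCP1 KO 2.49, 1.97, 2.22, 2.45 and 3.14 CPM. The FGF21 KO libraries gave 1.23, 1.72, 1.71, 1.28 and 1.6 CPM and the dKO libraries 3.44, 3.03, 1.53, 3.65 and 2.47 CPM. Kif20a, which acts at the central spindle, had 0.73 ± 0.20 in UCP1 KO against WT and 0.91 ± 0.20 in dKO against FGF21 KO, and dKO replicate 3 lay inside the FGF21 KO range. Cenpe read 0.395, 0.281, 0.21, 0.52 and 0.347 CPM in the 5 WT libraries and 1.42, 0.925, 0.489, 1.11 and 0.938 CPM in the 5 UCP1 KO libraries. FGF21 KO had 0.395, 0.355, 0.516, 0.311 and 0.407 CPM and dKO 1.61, 1.31, 0.495, 1.13 and 0.815 CPM of Cenpe. Cenpe, the kinetochore motor that aligns chromosomes, had 1.46 ± 0.32 in UCP1 KO against WT and 1.42 ± 0.32 in dKO against FGF21 KO, and 1 library overlapped in each comparison.

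Both transcription factors and the cyclins D1 and D2 also rose in both comparisons. E2F1 drives entry into S phase. The 5 WT libraries held 1.79, 1.47, 1.08, 1.69 and 0.985 CPM of E2f1 and the UCP1 KO libraries 2.44, 3.92, 3.12, 2.37 and 2.46 CPM. For E2f1, FGF21 KO gave 1.41, 0.977, 1.39, 1.14 and 1.25 CPM and dKO 2.68, 2.98, 1.91, 2.03 and 2.38 CPM. No library overlapped, and E2f1 had 1.02 ± 0.20 in UCP1 KO against WT and 0.95 ± 0.20 in dKO against FGF21 KO. Foxm1 stood at 0.913, 0.667, 1.05, 0.878 and 0.869 CPM in WT and at 1.48, 1.77, 1.59, 1.56 and 2.05 CPM in UCP1 KO. Its FGF21 KO values were 0.769, 1.01, 0.71, 0.623 and 0.594 CPM and its dKO values 2.44, 1.99, 1.04, 1.42 and 1.44 CPM. FOXM1, a driver of mitotic genes, had 0.95 ± 0.21 in UCP1 KO against WT and 1.16 ± 0.21 in dKO against FGF21 KO and no overlap either.

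Cyclins D1 (Ccnd1) and D2 (Ccnd2), the first cyclins to respond to growth signals, are shown with their much higher levels. In WT, Ccnd2 was measured at 22.1, 18.8, 22.4, 31.2 and 28.3 CPM, and in UCP1 KO at 34.7, 71.5, 50.9, 55.5 and 87.6 CPM. Ccnd2 in FGF21 KO came to 24.8, 18.2, 22.8, 16.5 and 17.5 CPM and in dKO to 27.5, 38.8, 38.7, 30.2 and 42.4 CPM. Ccnd2 did not overlap in either comparison and had 1.29 ± 0.20 in UCP1 KO against WT and 0.83 ± 0.20 in dKO against FGF21 KO. Ccnd1 had 10.6, 9.45, 10.3, 9.07 and 10.9 CPM in WT and 19.3, 18.8, 19.3, 24.3 and 24.2 CPM in UCP1 KO. Libraries of FGF21 KO had 13.7, 18.9, 9.04, 8.34 and 8.26 CPM and those of dKO 21.9, 19.9, 18.7, 18.3 and 16.8 CPM. Ccnd1 was higher in all UCP1 KO libraries than in WT, but FGF21 KO replicate 2 lay inside the dKO range. Its log2 fold change was 1.07 ± 0.18 in UCP1 KO against WT and 0.71 ± 0.18 in dKO against FGF21 KO (adjusted p = 0.000176 and 0.00696). Ccnd3, Ccne1 and Ccne2 were not called in either comparison, with log2 fold changes from -0.24 to 0.58.

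Of the 3 CDK inhibitors, p18 fell. Values of Cdkn2c were 64, 60.4, 80.2, 88.2 and 84.8 CPM in WT and 47.5, 32.7, 25.4, 27.1 and 27.4 CPM in UCP1 KO. They were 69.3, 63.3, 71.3, 76.1 and 64.3 CPM in FGF21 KO and 35, 28.1, 39.2, 45.7 and 37.7 CPM in dKO. Every library without UCP1 was below every library with it, and the log2 fold change of Cdkn2c was -1.24 ± 0.16 in UCP1 KO against WT and -0.89 ± 0.16 in dKO against FGF21 KO (adjusted p = 1.3e-05 and 0.000555). p21 did not pass the test. For Cdkn1a, WT gave 129, 125, 134, 65.9 and 64.2 CPM and UCP1 KO 162, 105, 131, 137 and 150 CPM. The FGF21 KO libraries gave 94.3, 75.6, 97.6, 100 and 182 CPM and the dKO libraries 152, 159, 170, 195 and 154 CPM. Cdkn1a spread widely within WT and FGF21 KO, and had 0.40 ± 0.23 in UCP1 KO against WT and 0.59 ± 0.23 in dKO against FGF21 KO with adjusted p = 0.164 and 0.0573. p27 (Cdkn1b), an inhibitor of resting cells, had -0.35 ± 0.11 in UCP1 KO against WT and -0.24 ± 0.11 in dKO against FGF21 KO with adjusted p = 0.0152 and 0.1.

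None of the replication genes was called, and of the 3 nucleotide synthesis genes 2 were in UCP1 KO against WT. RRM2, the subunit that limits ribonucleotide reductase, rose in both comparisons. Rrm2 read 1.46, 1.33, 0.944, 0.553 and 1.45 CPM in the 5 WT libraries and 3.35, 2.32, 2.26, 2.35 and 2.09 CPM in the 5 UCP1 KO libraries. FGF21 KO had 1.47, 1.1, 1.42, 1.31 and 0.97 CPM and dKO 4.38, 3.51, 1.23, 3.65 and 2.9 CPM of Rrm2. UCP1 KO did not overlap WT, dKO replicate 3 lay inside the FGF21 KO range, and Rrm2 had 1.10 ± 0.29 in UCP1 KO against WT and 1.32 ± 0.28 in dKO against FGF21 KO. The 5 WT libraries held 4.44, 3.41, 3.6, 3.48 and 3.45 CPM of Tyms and the UCP1 KO libraries 5.79, 4.45, 5.5, 5.04 and 6.83 CPM. For Tyms, FGF21 KO gave 3.23, 3.91, 3.1, 3.84 and 3.35 CPM and dKO 4.77, 5.02, 3.51, 5.12 and 5.27 CPM. Thymidylate synthase (Tyms) was called in UCP1 KO (0.59 ± 0.13, adjusted p = 0.00191) and not in dKO (0.44 ± 0.13, adjusted p = 0.0185). Rrm1, the other subunit of the reductase, stayed at 0.10 ± 0.10 and 0.10 ± 0.10. Mcm6, of the helicase that opens DNA, read 5.54, 6.25, 4.13, 4.78 and 5.39 CPM in WT and 5.23, 6.3, 5.7, 6.69 and 8.96 CPM in UCP1 KO, which overlapped (0.33 ± 0.18, adjusted p = 0.139). Mcm2 came nearest to a call among the replication genes, with 0.67 ± 0.20 and 0.63 ± 0.20 (adjusted p = 0.012 and 0.0236). Pcna, Mcm4 and Mcm7 lay between -0.26 and 0.08 in both comparisons.

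**Figure D2:**
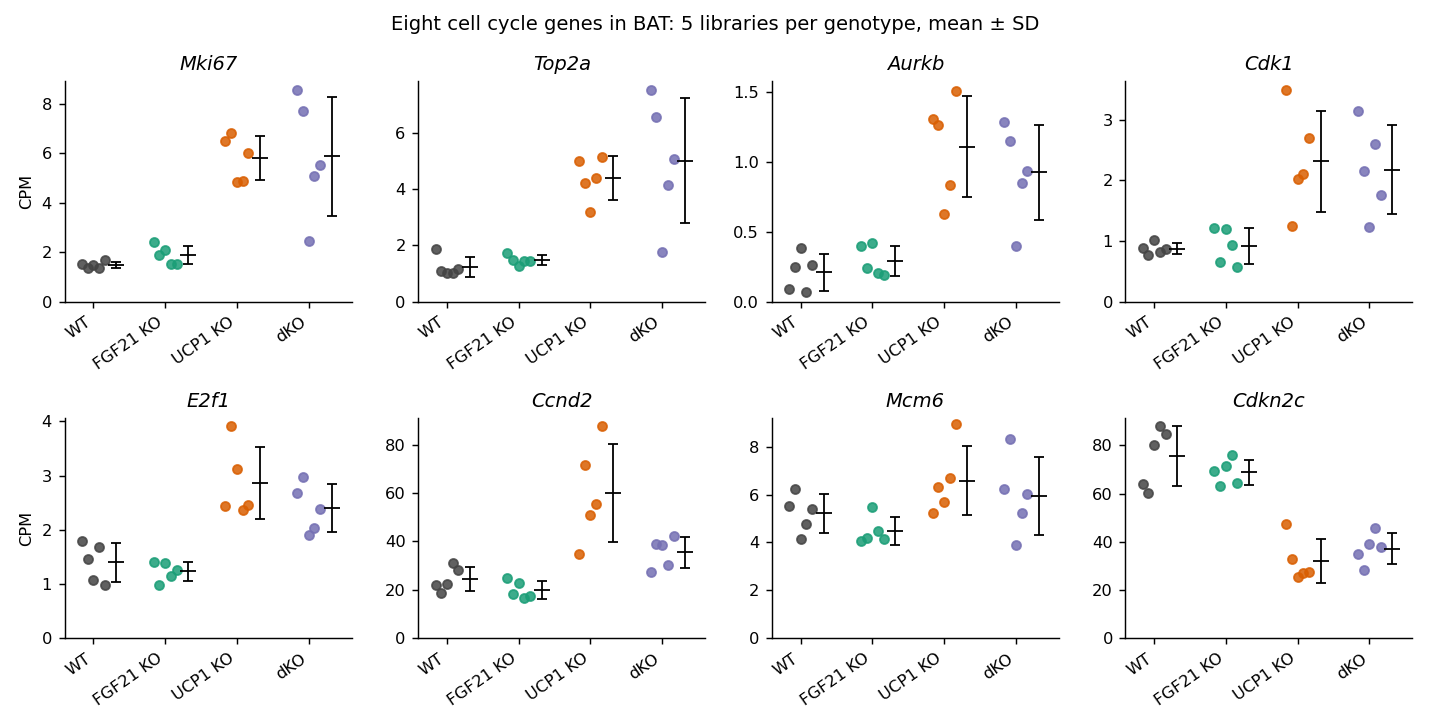
CPM of 8 cell cycle genes in the 20 BAT libraries, by genotype, on linear axes from 0. Each point is 1 library and the bar to its right is the mean ± SD. Mki67, Top2a, Cdk1, E2f1 and Ccnd2 lie above WT in UCP1 KO and above FGF21 KO in dKO without overlap, Aurkb overlaps in the second pair, Mcm6 overlaps in both, and Cdkn2c lies lower without overlap.

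**Figure D3:**
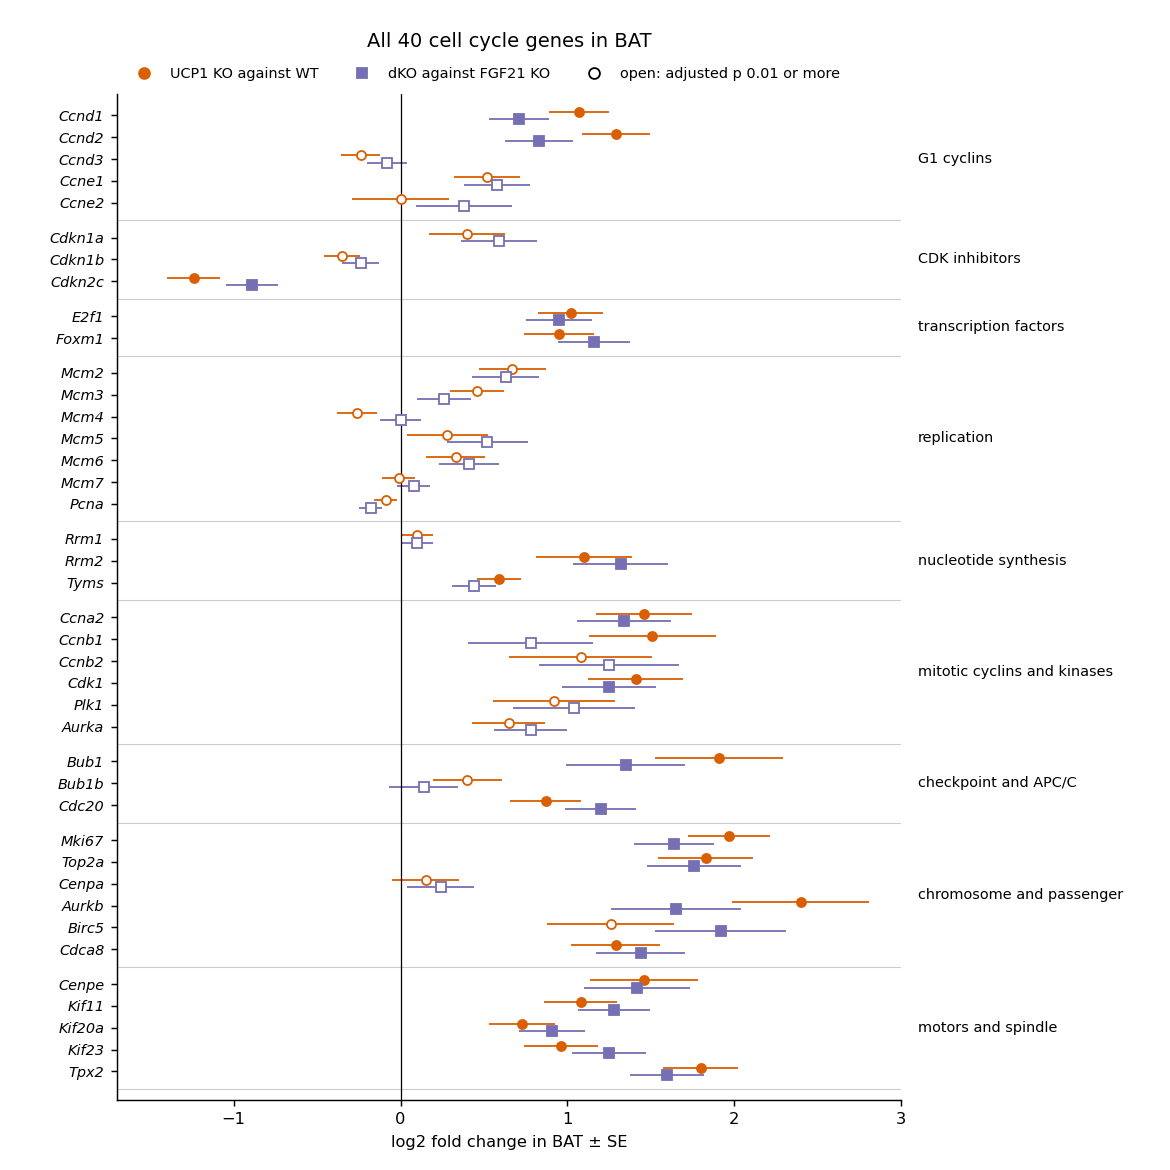
Log2 fold change ± SE of all 40 cell cycle genes in BAT, grouped by role. Circles are UCP1 KO against WT and squares dKO against FGF21 KO, and open symbols did not reach an adjusted p under 0.01. All 20 mitotic genes lie right of 0 in both comparisons, while the replication genes lie between -0.26 and 0.67, none of them called, and Cdkn2c lies at -1.24 and -0.89.

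Within dKO, replicate 3 was the lowest library for 15 of the 19 members called higher there. Without it 21 members were called, and in 20 refits, each leaving out a different BAT library, 15 to 21 were called, and 17 to 23 in UCP1 KO against WT. The full fits called 13.5% of all genes in dKO against FGF21 KO and 25.2% in UCP1 KO against WT. Shares of all genes in the refits are not given here. Of the calls, 17 of 21 in UCP1 KO and 14 of 20 in dKO held in each refit, while 6 of 21 and 7 of 20 held under every one of the other alternatives run, the covariates included. The mitotic mean, that is the mean log2 CPM of the 20 mitotic members, ran from -0.38 to -0.30 in WT, from -0.42 to -0.08 in FGF21 KO, from 0.52 to 1.08 in UCP1 KO and from 0.07 to 1.34 in dKO, so the libraries without UCP1 were all above those with it.

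Some markers of other cells also differed between these genotypes. Of 8 macrophage markers, 6 were called higher in UCP1 KO against WT and 1 in dKO against FGF21 KO. Cd163, on the same list, ran the other way. Its median was 9.3 CPM in WT and 3.97 in UCP1 KO, 7.87 in FGF21 KO and 4.06 in dKO, and the groups overlapped. The list's mean log2 CPM ran from 3.33 to 3.64 in WT, 3.69 to 5.29 in UCP1 KO, 3.21 to 3.90 in FGF21 KO and 3.38 to 4.31 in dKO. With that mean as a covariate, an alternative added after seeing the data, 6 members were called in UCP1 KO against WT (Mki67, Top2a, Cdk1, Tpx2 and Ccnd1 higher and Cdkn2c lower, median 0.68, 7.15% of all genes called) and 17 in dKO against FGF21 KO (11.3% of all genes). Of 10 skeletal muscle markers, 6 were higher in UCP1 KO and 0 in dKO, with a mean up to 9.70 in UCP1 KO and 8.74 in dKO against at most 3.82 in WT and 5.39 in FGF21 KO. Without the 4 libraries where it was highest, UCP1 KO replicate 2 and dKO replicates 1, 3 and 4, 22 and 20 members were called, where 24.6% and 11.9% of all genes were. The lymph node signal, the mean log2 CPM of the B cell gene Cd79a and the T cell gene Cd3e, was low in BAT, from -1.46 to -0.50 in WT, -1.06 to -0.41 in UCP1 KO, -2.14 to -1.06 in FGF21 KO and -1.52 to 0.53 in dKO. With it as a covariate 21 members were called in UCP1 KO against WT (22.8% of all genes) and 8 in dKO against FGF21 KO (median 0.83, 5.5% of all genes called). Of the other lists, adipocyte progenitor markers had 0 of 6 called in either comparison, and endothelial markers had 1 of 6 (Tek) called lower in each. Of 6 adipocyte markers, Adipoq and Lipe fell in UCP1 KO and Adipoq in dKO. Adipoq, the gene of adiponectin, ran from 681 to 899 CPM in WT, 209 to 462 in UCP1 KO, 621 to 839 in FGF21 KO and 298 to 423 in dKO, with no overlap in either comparison. Of 6 brown adipocyte markers, 1, the fatty acid elongase Elovl3, rose in each, by 3.31 ± 0.41 and 3.01 ± 0.41 on the log2 scale. Of the 3 germinal centre B cell markers tested, 1, Gcsam, rose in each, and of 8 lymph node markers 1, Cd3e, rose in dKO. Hepatocyte markers had 0 of 6 called in either comparison. The part of these cells in the members' rise was not tested further.

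The rest of the cell cycle genes were counted the same way in BAT. Of 74 further cell cycle genes, 71 were tested, 25 rose and 4 fell in UCP1 KO against WT (median 0.42), where 13.8% of all genes rose and 11.4% fell. In dKO against FGF21 KO 17 rose and 2 fell (median 0.39), where 6.74% of all genes rose and 6.8% fell. The largest changes were those of Tk1, thymidine kinase, at 2.51 ± 0.42 (0.327 CPM in WT and 1.88 in UCP1 KO), the repressor E2f8 at 2.14 ± 0.37 and the mitotic kinase Pbk at 2.07 ± 0.45 in UCP1 KO. In dKO they were those of the checkpoint kinase Ttk at 3.13 ± 0.32 (0.0656 CPM in FGF21 KO and 0.628 in dKO), Nek2 at 1.91 ± 0.40 and Hmmr at 1.86 ± 0.34.

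In liver no member was called in any genotype comparison, but UCP1 KO leaned above WT. In UCP1 KO against WT, where 0.0694% of all 14407 genes were called, 16 members were higher and 2, Cdkn1a and Rrm2, lower at an unadjusted p under 0.05, against 5.8% and 4.4% of all genes. All 20 mitotic members had a positive log2 fold change (49.9% of all genes had), with a median of 0.94, and the median of all 40 was 0.54 beside 0.00 for all genes. No library overlapped for 8 of the 40 members, all higher in UCP1 KO, where 1.39% of all genes did so. Mcm6 came nearest to a call (0.91 ± 0.18, adjusted p = 0.0255), and it was the 1 member that DESeq2 called. Mcm6 stood at 3.54, 3.4, 4.04, 3.22 and 2.55 CPM in WT and at 4.86, 5.13, 7.67, 8.1 and 5.64 CPM in UCP1 KO. Its FGF21 KO values were 5.24, 4.1, 3.89, 4.7 and 3.44 CPM and its dKO values 3.87, 6.2, 4.14, 3.82 and 5.34 CPM. All UCP1 KO libraries were above all WT libraries.

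The mitotic members in liver showed this lean with wide spread. In WT, Mki67 was measured at 2.71, 1.94, 1.96, 1.33 and 1.91 CPM, and in UCP1 KO at 4.77, 3.05, 4.92, 3.98 and 2.44 CPM. Mki67 in FGF21 KO came to 2.36, 1.97, 1.73, 5.66 and 1.42 CPM and in dKO to 1.56, 6.91, 2.51, 2.13 and 4.29 CPM. UCP1 KO overlapped WT only at its lowest library, with 0.96 ± 0.39 (adjusted p = 0.381). Top2a had 1.61, 1.07, 1.51, 0.835 and 1.32 CPM in WT and 2.9, 2.48, 2.96, 3.68 and 2.24 CPM in UCP1 KO. Libraries of FGF21 KO had 1.27, 1.18, 1.48, 3.26 and 1.18 CPM and those of dKO 1.45, 5, 1.45, 1.66 and 2.71 CPM. UCP1 KO did not overlap WT for Top2a (1.17 ± 0.35, adjusted p = 0.159). Values of Cdk1 were 0.885, 1.13, 0.854, 0.737 and 0.738 CPM in WT and 1.42, 1.26, 1.93, 1.91 and 2.17 CPM in UCP1 KO. They were 1.21, 0.866, 0.993, 1.93 and 1.29 CPM in FGF21 KO and 0.835, 2.66, 1.27, 0.649 and 1.49 CPM in dKO. Cdk1 did not overlap either (1.00 ± 0.31, adjusted p = 0.182).

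Cyclin B1 in liver had the largest difference of the members in UCP1 KO against WT, 1.56 ± 0.53 (adjusted p = 0.259). For Ccnb1, WT gave 0.349, 0.179, 0.455, 0.295 and 0.154 CPM and UCP1 KO 0.966, 0.467, 1.23, 0.97 and 0.634 CPM. The FGF21 KO libraries gave 0.317, 0.341, 0.509, 0.717 and 0.268 CPM and the dKO libraries 0.167, 2.03, 0.362, 0.325 and 0.747 CPM. For all 4 of these genes dKO replicate 2 was the highest library of its group and FGF21 KO replicate 4 was the highest of its own. Ccnd1 read 13.6, 10.6, 17, 24.2 and 22.6 CPM in the 5 WT libraries and 27.8, 22.7, 23.2, 18.8 and 27.2 CPM in the 5 UCP1 KO libraries. FGF21 KO had 24.1, 20.1, 21.6, 20.3 and 17.8 CPM and dKO 17.8, 41.9, 18.7, 14.6 and 28.3 CPM of Ccnd1. Ccnd1 overlapped between the groups. The 5 WT libraries held 13.2, 9.2, 4.3, 2.19 and 1.75 CPM of Cdkn1a and the UCP1 KO libraries 1.9, 2.44, 3.02, 3.58 and 3.27 CPM. For Cdkn1a, FGF21 KO gave 6.22, 2.23, 5.88, 5.24 and 9.58 CPM and dKO 6.21, 8.56, 8.59, 16.3 and 9.85 CPM. Cdkn1a ran the other way, with -1.11 ± 0.46 (adjusted p = 0.396), and its WT libraries spread from 1.75 to 13.2 CPM. Skeletal muscle markers averaged 1.58 to 3.72 log2 CPM in WT livers and 1.07 to 1.79 in UCP1 KO livers, and with them as a covariate the median of the 40 members was 0.37. In dKO against FGF21 KO the median was 0.17, with 0 members called, 1 higher (Ccnd2) and 1 lower (Ccne1) at an unadjusted p under 0.05 (6.75% of all genes) and 0.00694% of all genes called. In FGF21 KO against WT it was 0.20, with 0 members called, 1 higher (Mcm5) at an unadjusted p under 0.05 (7.54% of all genes) and 0.229% of all genes called. UCP1 KO against dKO had 0 members called, with 2 higher (Mcm6 and Tyms) and 1 lower (Cdkn1a) at an unadjusted p under 0.05 (8.25% of all genes). UCP1 KO and dKO did not overlap for Cdkn1a, which was not called (-1.79 in UCP1 KO against dKO, 0.00694% of all genes called). DESeq2 called 0 members in these 3 comparisons.

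In muscle edgeR called 0 members in each comparison, as did DESeq2, where 0.0265%, 0.0595%, 0% and 0.00662% of all 15114 genes were called in UCP1 KO against WT, dKO against FGF21 KO, UCP1 KO against dKO and FGF21 KO against WT. At an unadjusted p under 0.05, 5 members (Ccnd3, Ccna2, Birc5, Kif23 and Tpx2) were higher in dKO against FGF21 KO (7.96% of all genes passed), 3 higher (Cdkn2c, Mcm2 and Mcm3) and 3 lower (Ccnd3, Cdkn1b and Cdc20) in FGF21 KO against WT (12.9%), 1 higher (Ccnd1) in UCP1 KO against dKO (11.7%) and 0 in UCP1 KO against WT (9.81%). The median member lay between -0.10 and 0.17. Mki67 stood at 1.96, 1.79, 2.1, 1.43 and 1.27 CPM in WT and at 2.97, 1.38, 1.9, 1.76 and 1.54 CPM in UCP1 KO. Its FGF21 KO values were 1.68, 1.6, 1.69, 1.08 and 1.79 CPM and its dKO values 1.05, 8.3, 1.85, 1.26 and 1.04 CPM. The dKO library replicate 2 stood far above the other 19, and the rest of the groups overlapped. In WT, Top2a was measured at 1.47, 1.3, 1.65, 1.46 and 1.3 CPM, and in UCP1 KO at 2.53, 1.4, 1.8, 0.958 and 0.988 CPM. Top2a in FGF21 KO came to 1.14, 1.05, 0.908, 0.652 and 1.58 CPM and in dKO to 1.05, 3.36, 1.12, 0.954 and 0.58 CPM. The same dKO library was highest for Top2a. Cdk1 had 0.314, 0.325, 0.532, 0.364 and 0.433 CPM in WT and 0.818, 0.397, 0.494, 0.228 and 0.345 CPM in UCP1 KO. Libraries of FGF21 KO had 0.352, 0.525, 0.252, 0.34 and 0.63 CPM and those of dKO 0.305, 1.16, 0.45, 0.406 and 0.193 CPM. dKO replicate 2 was highest for Cdk1 as well. Values of Ccnb1 were 0.34, 0.278, 0.186, 0.34 and 0.289 CPM in WT and 0.347, 0.117, 0.198, 0.205 and 0.115 CPM in UCP1 KO. They were 0.186, 0.15, 0.252, 0.085 and 0.158 CPM in FGF21 KO and 0.25, 0.798, 0.15, 0.143 and 0.217 CPM in dKO. Ccnb1 was again highest in dKO replicate 2. This library also had the highest mean log2 CPM of erythroid markers, at 2.42 where all other muscle libraries lay between -2.67 and -1.04, and the link between them was not tested. For Ccnd1, WT gave 13.4, 12.3, 10.5, 13.3 and 10.2 CPM and UCP1 KO 11.7, 13.9, 11.5, 16.3 and 11.7 CPM. The FGF21 KO libraries gave 11.5, 10.1, 14.3, 10.5 and 12.4 CPM and the dKO libraries 8.96, 11.9, 9.92, 7.73 and 12.2 CPM. All groups overlapped for Ccnd1. Cdkn1a read 21.4, 28.6, 25.6, 13.3 and 11.4 CPM in the 5 WT libraries and 18, 25.3, 18.4, 25.6 and 16.2 CPM in the 5 UCP1 KO libraries. FGF21 KO had 23, 22, 15.6, 18.5 and 29.5 CPM and dKO 13.1, 18.5, 34.8, 31.7 and 22.8 CPM of Cdkn1a. They did so for Cdkn1a too.

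The difference between tissues was tested for each member. In a fit over all 80 libraries, the UCP1 KO against WT change was larger in BAT than in iWAT for 11 members, among them Aurkb, Mki67, Top2a and Tpx2, where 11% of all 17611 genes differed in either direction. For dKO against FGF21 KO it differed for 14 members, 13 of them more positive in BAT, where 7.47% of genes differed. In this comparison 4 of the 5 FGF21 KO and 2 of the 5 dKO iWAT libraries had a high lymph node signal (below), which this fit left out. With the signal as a covariate in the fit of iWAT alone, the median member there went from -0.38 to -0.14, and over the libraries with a low signal, 3 of dKO and 1 of FGF21 KO, it was -0.06, which rests on that single FGF21 KO library. For UCP1 KO against WT, 2 WT and 1 UCP1 KO iWAT libraries had a high signal. With the covariate the iWAT median of that comparison went from -0.12 to 0.04. How many members differ between BAT and iWAT with the signal in the model was not tested. Against liver 3 members differed in the first comparison (Ccnd2, Rrm2 and Cdkn2c, 5.72% of genes) and 0 in the second (2.07% of genes). Against muscle 3 differed in the first (Ccnd2, E2f1 and Tpx2, 4.5% of genes) and 1, Cdca8, in the second (2.19% of genes). The difference was 2.02 ± 0.56 for Mki67 in the first comparison with iWAT and 2.41 ± 0.55 in the second.

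**Figure D4:**
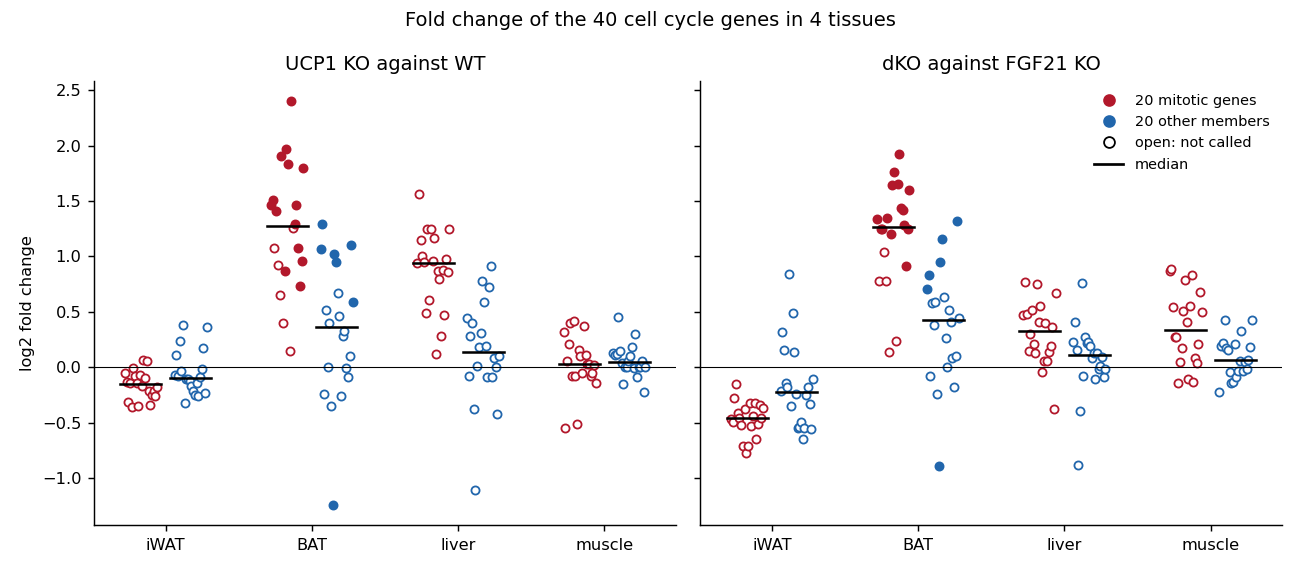
Log2 fold change of the 20 mitotic genes (red) and the 20 other members (blue) in 4 tissues, for UCP1 KO against WT and dKO against FGF21 KO. Each point is 1 gene, filled where called, and black lines are medians. Filled points occur only in BAT, and the mitotic median in liver is 0.94 in the first comparison and 0.33 in the second.

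In iWAT no member was called in any genotype comparison, under any of the alternatives run, DESeq2 included. Background shares were 0.61% of 17380 genes in UCP1 KO against WT, 0.0115% in dKO against FGF21 KO, 0.466% in UCP1 KO against dKO and 0.00575% in FGF21 KO against WT. At an unadjusted p under 0.05, UCP1 KO against WT had 1 member (Tyms) higher (14.7% of all genes passed), dKO against FGF21 KO 2 higher (Ccnd2 and Cdkn1a) and 1 lower (Rrm1) (8.62%), and UCP1 KO against dKO 1 (Ccnb2) lower (14.2%). Libraries of iWAT differed in their lymph node signal. The inguinal fat pad holds a lymph node, a site where lymphocytes divide. The signal fell into 2 clusters, 9 libraries from 6.08 to 6.87 log2 CPM and 11 from -0.65 to 1.33. The high libraries were 2 of WT, 4 of FGF21 KO, 1 of UCP1 KO and 2 of dKO. Skeletal muscle markers varied between iWAT libraries as well, with a mean log2 CPM from 1.74 to 10.79. It was highest in UCP1 KO replicate 1 (10.79), WT replicate 5 (9.89), FGF21 KO replicate 5 (8.4) and WT replicate 4 (6.56), and of these all but UCP1 KO replicate 1 also had a high lymph node signal. With the muscle mean as a covariate 0 members were called in each of the 4 comparisons, and the median member lay between -0.39 in dKO against FGF21 KO and 0.69 in FGF21 KO against WT.

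Cd79a read 1.8, 3.26, 6.2, 166 and 200 CPM in WT and 237, 0.964, 285, 231 and 248 CPM in FGF21 KO. In UCP1 KO it read 1.78, 296, 1.26, 1.21 and 1.09 CPM and in dKO 308, 1.96, 287, 0.637 and 1.62 CPM. Fitted beside genotype, the signal was positively associated with 27 of the 40 members and negatively with 3, where 63.6% of 17378 genes were called, 30.6% positive and 33% negative. The median slope was 0.11 log2 units per log2 unit of signal beside -0.009 for all genes. All 7 replication genes and 15 of 20 mitotic members rose with the signal. Of the other lists, 6 of 6 further lymph node markers and 4 of 5 germinal centre B cell markers rose with it, and 5 of 6 adipocyte and 5 of 6 endothelial markers fell.

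The helicase gene Mcm5 had the largest slope of the 40 members. It ran from 7.42 to 11.6 CPM (median 8.37) in the low libraries and from 18.8 to 38.4 CPM (median 28.6) in the high libraries, with a slope of 0.25 ± 0.01. The 2 clusters did not overlap for Mcm5, nor for Mcm2, Mcm3, Mcm4, Mcm6 and Mcm7. In all, 11 members were higher in every high library than in every low one, 27.5% of members where 19.3% of all genes were. Besides the Mcm genes they were Cdkn1b, Rrm2 and 3 of the 20 mitotic members, Bub1b, Cenpa and Kif23. The mitotic share, 15%, was below that of all genes. Mki67 ran from 11 to 28.3 CPM (median 13) in the low libraries and from 22.7 to 73 CPM (median 38.2) in the high libraries, which overlapped (slope 0.17 ± 0.03), and Top2a ran from 7.62 to 23.4 CPM (median 10.9) in the low libraries and from 21.4 to 53.2 CPM (median 31.1) in the high libraries (slope 0.18 ± 0.03).

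Not all mitotic members followed it. Cdk1 ran from 4.36 to 9.58 CPM (median 5.5) in the low libraries and from 6.09 to 9.97 CPM (median 6.57) in the high libraries, with a slope of 0.02 ± 0.02 that was not called. Kif20a, Ccnb2, Ccna2 and Cdc20 were not called either. Ccnb1 was called and ran from 1.51 to 5.14 CPM (median 2.24) in the low libraries and from 3.05 to 8.1 CPM (median 4.56) in the high libraries (slope 0.11 ± 0.03). The CDK inhibitors differed in direction, since Cdkn1b rose with the signal (0.13 ± 0.01), while Cdkn1a (-0.15 ± 0.02) and Cdkn2c (-0.15 ± 0.03) fell, and E2f1 fell by 0.05 per unit. Cdkn1a ran from 63.8 to 136 CPM (median 90.1) in the low libraries and from 28.9 to 77.5 CPM (median 48.9) in the high libraries. In WT the high libraries, replicates 4 and 5, read 34.3 and 36.4 CPM of Cdkn1a. The WT libraries so numbered were also the lowest for Cdkn1a in BAT, liver and muscle, though the labels do not link the tissues of a mouse. Ccnd1 ran from 35.6 to 72.4 CPM (median 50.2) in the low libraries and from 56.2 to 106 CPM (median 73.9) in the high libraries (slope 0.08 ± 0.02), and Ccnd2 and Ccnd3 had slopes of 0.01 ± 0.01 and 0.00 ± 0.01.

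By genotype, single genes in iWAT mixed both clusters. The 5 WT libraries held 13, 11, 11.8, 22.7 and 38.2 CPM of Mki67 and the UCP1 KO libraries 15.7, 33.6, 13, 12.4 and 17.4 CPM. For Mki67, FGF21 KO gave 39.4, 23.4, 73, 45.5 and 38.3 CPM and dKO 28.3, 22.6, 37.8, 11.5 and 28.3 CPM. The widest range was that of FGF21 KO. Top2a stood at 10.9, 7.62, 10.7, 21.4 and 35.7 CPM in WT and at 14.1, 26.6, 9.6, 10.8 and 15.5 CPM in UCP1 KO. Its FGF21 KO values were 28.9, 17.7, 53.2, 36.6 and 31.8 CPM and its dKO values 23.5, 16, 31.1, 9.24 and 23.4 CPM. For both genes FGF21 KO replicate 3 was the highest of all 20 libraries, and all groups overlapped. In WT, Cdk1 was measured at 5.62, 5.22, 5.34, 6.19 and 8.24 CPM, and in UCP1 KO at 5.5, 6.09, 4.36, 5.46 and 6.42 CPM. Cdk1 in FGF21 KO came to 8.53, 6.72, 9.97, 8.3 and 6.57 CPM and in dKO to 6.39, 8.97, 6.46, 4.61 and 9.58 CPM. UCP1 KO lay below FGF21 KO for Cdk1, and every other pair of groups overlapped. Ccnb1 had 2.24, 1.65, 1.51, 3.19 and 4.99 CPM in WT and 3.41, 3.05, 1.77, 1.89 and 2.25 CPM in UCP1 KO. Libraries of FGF21 KO had 4.56, 2.86, 8.1, 5.83 and 5.2 CPM and those of dKO 4.02, 3.53, 4.13, 2.11 and 5.14 CPM. For Ccnb1, too, FGF21 KO replicate 3 was highest.

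Values of Cdkn1a were 82.2, 77.8, 75.2, 34.3 and 36.4 CPM in WT and 63.8, 48.9, 99.2, 90.1 and 96.1 CPM in UCP1 KO. They were 55.2, 84.8, 43.2, 28.9 and 49.8 CPM in FGF21 KO and 49.5, 97.8, 77.5, 109 and 136 CPM in dKO. For Cdkn1a the lowest library of all was FGF21 KO replicate 4 and the highest dKO replicate 5. For Ccnd1, WT gave 51.8, 46.1, 50.9, 56.2 and 64.9 CPM and UCP1 KO 48.6, 73.9, 39.4, 45.2 and 50.2 CPM. The FGF21 KO libraries gave 72.9, 59.1, 106, 62.2 and 74 CPM and the dKO libraries 81.5, 56.3, 77.7, 35.6 and 72.4 CPM. Ccnd1 was highest in FGF21 KO replicate 3. FGF21 KO against WT leaned upward, with 35 of 40 members positive (48.9% of all genes), a median of 0.60 and 17 members higher and 1, E2f1, lower at an unadjusted p under 0.05 (8.01% and 9.38% of all genes). FGF21 KO held 4 high libraries and WT 2. With the signal as a covariate the median was 0.34. Over the low libraries alone, where FGF21 KO has a single library that is assumed to vary like the other groups, it was 0.45. UCP1 KO against WT had a median of -0.12, and 0.04 with the covariate.

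Within a cluster, members were set against Cd79a over single libraries. In the 9 high libraries Pearson's r ran from -0.577 to 0.771 with a median of 0.247, and in the 11 low libraries from -0.459 to 0.606 with a median of -0.112. None of the 80 relations passed a permutation test after adjustment (lowest adjusted p = 0.739 for Pearson's r and 0.856 for Spearman's rho), so no relation was called within a cluster.

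**Figure D5:**
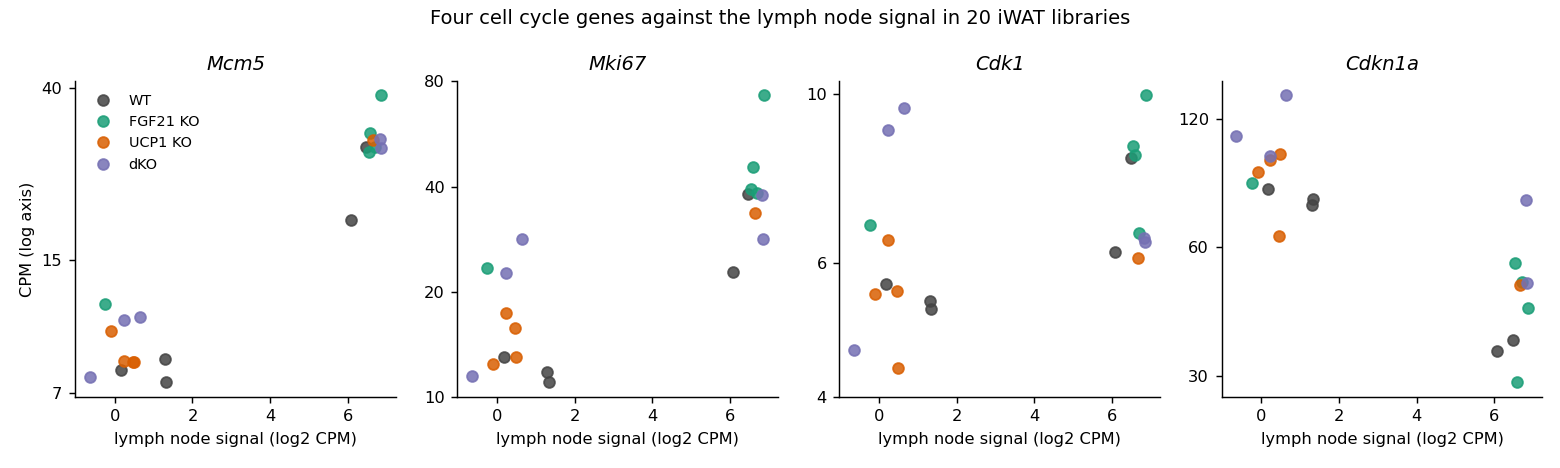
CPM (log axis) of Mcm5, Mki67, Cdk1 and Cdkn1a against the lymph node signal, the mean log2 CPM of Cd79a and Cd3e, in the 20 iWAT libraries coloured by genotype. Libraries form clusters up to 1.33 and from 6.08 on. Mcm5 is higher in every library of the right cluster, Mki67 and Cdk1 overlap between clusters, and Cdkn1a lies mostly lower on the right.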

How the data were processed

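Poly(A) RNA was sequenced from 80 libraries with stranded, paired-end chemistry. The authors aligned reads with STAR to GRCm38 and counted reads per gene with HTSeq-count. The deposited values are raw counts per gene symbol, and the strand setting is not given in the sources used here. A row naming no gene, at most 3.42e-05% of a library's counts, was dropped. In each tissue, genes were kept with a highest count over 15, a sum over 75 and at most 10 libraries at 0 (at most 40 in fits over all 80 libraries). TMM-normalised counts were tested across the 4 genotypes of a tissue with edgeR 4.0.16 (quasi-likelihood test, R 4.3.3), with Benjamini-Hochberg adjustment over all genes tested. A gene was called at an adjusted p under 0.01. CPM values use TMM library sizes, log2 CPM a prior count of 2, and errors of log2 fold changes are standard errors derived from the F statistic. DESeq2 1.42.0, RLE factors (edgeR's form of DESeq2's size factors), no low-count filter, a threshold of 0.05, fits restricted to the groups being compared, covariates and leaving out each library were alternatives, and the fits were tested on simulated data. Macrophage and lymph node covariates in BAT and the removal of BAT libraries rich in muscle RNA were added after seeing the data. All 40 members were accounted for. Values of every BAT library are given for the members called in a genotype comparison, and those of every tissue for Mki67, Top2a, Cdk1, Ccnb1, Cdkn1a and Ccnd1. Of the other cell cycle genes up to 3 called genes with the largest change are named per comparison. Members and lists were chosen with earlier results of these data known.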

Additional observations from a re-analysis of the deposited data

Results flagged for a closer look

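Within groups of 5 libraries, 13 of 164 groups tested (7.93%) had a highest or lowest library far from the others by Dixon's test, which chance gives in about 1 in 20 groups. In iWAT, Mki67 stood at 33.6 CPM in UCP1 KO replicate 2, above the other 4 at 12.4 to 17.4 CPM. This library was the 1 UCP1 KO iWAT library with a high lymph node signal, 6.66 log2 CPM against -0.1 to 0.48 in the other 4. In BAT, Cdkn1a stood at 182 CPM in FGF21 KO replicate 5, above 75.6 to 100.0 CPM. Rrm2 in BAT stood at 3.35 CPM in UCP1 KO replicate 1, above 2.09 to 2.35 CPM. Tyms in BAT stood at 4.44 CPM in WT replicate 1, above 3.41 to 3.6 CPM, and at 3.51 CPM in dKO replicate 3, below 4.77 to 5.27 CPM. Top2a in BAT stood at 1.86 CPM in WT replicate 1, above 1.01 to 1.16 CPM. In liver, FGF21 KO replicate 4 stood out with 5.66 CPM of Mki67, above 1.42 to 2.36 CPM, and 3.26 CPM of Top2a, above 1.18 to 1.48 CPM. In muscle, dKO replicate 2 stood out with 8.3 CPM of Mki67, 3.36 CPM of Top2a, 1.16 CPM of Cdk1 and 0.798 CPM of Ccnb1. Mki67 in muscle was low in FGF21 KO replicate 4, at 1.08 CPM, below 1.6 to 1.79 CPM.

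The effect of UCP1 loss differed between BAT and another tissue, by a test of the difference itself, for 11 members against iWAT (11% of all genes differed), 3 members against liver (5.72%) and 3 members against muscle (4.5%) in UCP1 KO against WT. In dKO against FGF21 KO it differed for 14 members against iWAT (7.47% of all genes) and 1 member against muscle (2.19%). The members' shares against liver and muscle are near those of all genes. The iWAT side of the second comparison holds 4 FGF21 KO and 2 dKO libraries with a high lymph node signal, and its member median went from -0.38 to -0.14 with the signal as a covariate and was -0.06 over the low-signal libraries, 3 of dKO and a single one of FGF21 KO. That of the first holds 2 WT and 1 UCP1 KO libraries with a high signal, and its member median went from -0.12 to 0.04 with the covariate.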

How the results depend on the processing

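The count of called members kept within 1.5 times its value under all alternatives run but 4. With the macrophage mean as a covariate it was 6 in BAT for UCP1 KO against WT, and with the lymph node signal as a covariate 8 in BAT for dKO against FGF21 KO. In liver, UCP1 KO against WT had 1 called member at an adjusted p under 0.05 and 1 by DESeq2. Leaving out 1 library at a time gave 17 to 23 and 15 to 21 members in BAT for UCP1 KO against WT and dKO against FGF21 KO, 26 to 32 for the lymph node signal in iWAT, 32 to 35, 13 to 15 and 16 for BAT against iWAT, liver and muscle in WT, and 0 in every other genotype comparison. Of the called members, 139 combinations of a member and a setting lost the call and 0 reversed direction. Mitotic members had 2 to 323 reads per WT library in BAT, which limits the precision of the lowest. No paired analysis was possible because the labels carry no replicate numbers and do not link libraries of a mouse, and the numbers used here only name libraries in the order of deposition.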
